A study of Caenorhabditis elegans with 2 samples.

Results

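The genes described here are the histone genes of Caenorhabditis elegans, read in ChIP-seq of the homeodomain protein CEH-82 (F45C12.2) in L4 larvae. They were chosen as every gene whose Ensembl symbol is his- followed by digits alone, which gave 72 of the 19985 protein-coding genes. Of these, 67 lay within 5 kb of another his- gene and are called clustered, and 5 stood alone (his-24, his-71, his-72, his-73 and his-74). No peak value entered the choice. The 2 libraries were biological replicates of 1 group of animals, so no condition was compared. Both came from whole, pooled L4 larvae of mixed sex of strain OP212, with the genotype unc-119(ed3) III and the transgene ddEx58. This transgene supplies CEH-82 with a GFP and FLAG tag. Whether the transgene is an extrachromosomal array or an insertion could not be settled from the labels, and how its level compares with that of the native gene is not given there. Chromatin from every tissue of the larva was mixed, so a peak does not show in which cells it arose.

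Histones package DNA into nucleosomes. The core is built from H2A, H2B, H3 and H4, and a linker histone, H1, binds the DNA that enters and leaves it. Most core histone genes of this animal are short, lack introns, and lie in clusters as back-to-back pairs that share the DNA between their starts, and their products are made mainly while DNA is replicated. Replacement variants such as H3.3 and H2A.Z are also laid down outside replication, and their genes tend to be single and to carry introns. The germ line and several blast lineages still divide in L4 larvae.

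A histone class was assigned to 70 of the 72 genes. It came from the RefSeq product name except at his-24, whose product name, Histone 24, gives no class and which was set to H1. There were 17 H2A, 16 H2B, 15 H3, 16 H4 and 5 H3.3 or H3.3-like genes, and 1 gene, his-24, for linker histone H1. The remaining 2, his-39 and his-73, are annotated only as holding a domain shared by H2A, H2B and H3. Back-to-back neighbours made up 31 pairs with 62 genes, of which 16 joined H2A with H2B, 14 joined H3 with H4 and 1 joined H4 with H2A. The gap between the starts of a pair ran from 227 to 368 bp, with a median of 258 bp. The copies are close: the 72 genes hold 50 distinct coding sequences, and 36 genes share theirs exactly with at least 1 other.

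The deposited values were peak lists on the build ce11 in which each peak has a summit and the authors' signal value, a score relative to a control on a scale that is not stated. The list from pooled reads held 15658 peaks, with signal values from 2.00 to 56.9 and a median of 2.95. Replicate 1 had 4561 peaks with a median of 2.66 and replicate 2 had 8651 with a median of 2.84. These 3 lists are relaxed and include background by design, whereas a thresholded list of 57 peaks, with signal values from 16.4 to 56.9, held those the authors kept for reproducibility. Sequencing depth is unknown, the control was not analysed here, and a peak is therefore described as a listed peak and not as binding. Signal values are compared only within a list.

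A pooled summit lay within 1000 bp of the start of 17 histone genes, 23.6% of 72 (exact Clopper-Pearson 95% interval 14.4 to 35.1), against 30.0% of all protein-coding genes. In replicate 1 the count was 10 genes, or 13.9% (6.87 to 24.1), against 9.99% of all. In replicate 2 it was 14 genes, or 19.4% (11.1 to 30.5), against 18.1% of all. The background share lies inside the interval in each of these lists. Summits of both replicates lay near 6 histone genes, or 8.33% (3.12 to 17.3), against 3.8% of all, and these were his-35, his-37, his-41, his-59, his-60 and his-72. Among the 1000 pooled peaks of highest signal value, a summit lay near 5 histone genes, or 6.94% (2.29 to 15.5), against 3.27% of all. By the same rule in each replicate's own list the counts were 1 of 72 in replicate 1, against 2.65% of all, and 6 of 72 in replicate 2, against 3.15% of all, so replicate 1 alone lay below the background. With the 3000 strongest the count was 10, or 13.9% (6.87 to 24.1), against 7.98% of all. With the 300 strongest it was 3, or 4.17% (0.868 to 11.7), against 1.23% of all. The background share also lies inside the interval for summits of both replicates and for the 1000, 3000 and 300 strongest pooled peaks. None of the 72 had a thresholded summit, which allows a share of up to 4.99%, against 0.275% of all. Intervals treat genes as separate and cover counting error only, although partners in a pair often share 1 summit.

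Among clustered genes 14 of 67 (20.9%, 11.9 to 32.6) had a pooled summit within 1000 bp, and among lone genes 3 of 5 (60%, 14.7 to 94.7). The 5 genes near one of the 1000 strongest summits were all clustered: his-35, his-37, his-41, his-67 and his-68. For the 17 genes with a pooled summit the strongest one had a signal value from 2.04 to 15.4 with a median of 4.29, against a median of 3.18 over the 5996 protein-coding genes with a summit. Medians were 2.80 for 10 histone genes against 2.76 for all in replicate 1, and 4.36 for 14 histone genes against 3.04 for all in replicate 2. No summit of any of the 3 relaxed lists lay near 51 of the 72 genes. Another 4 had one in a single replicate list only: his-69 in replicate 1, and his-15, his-63 and his-64 in replicate 2.

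**Figure D1:**
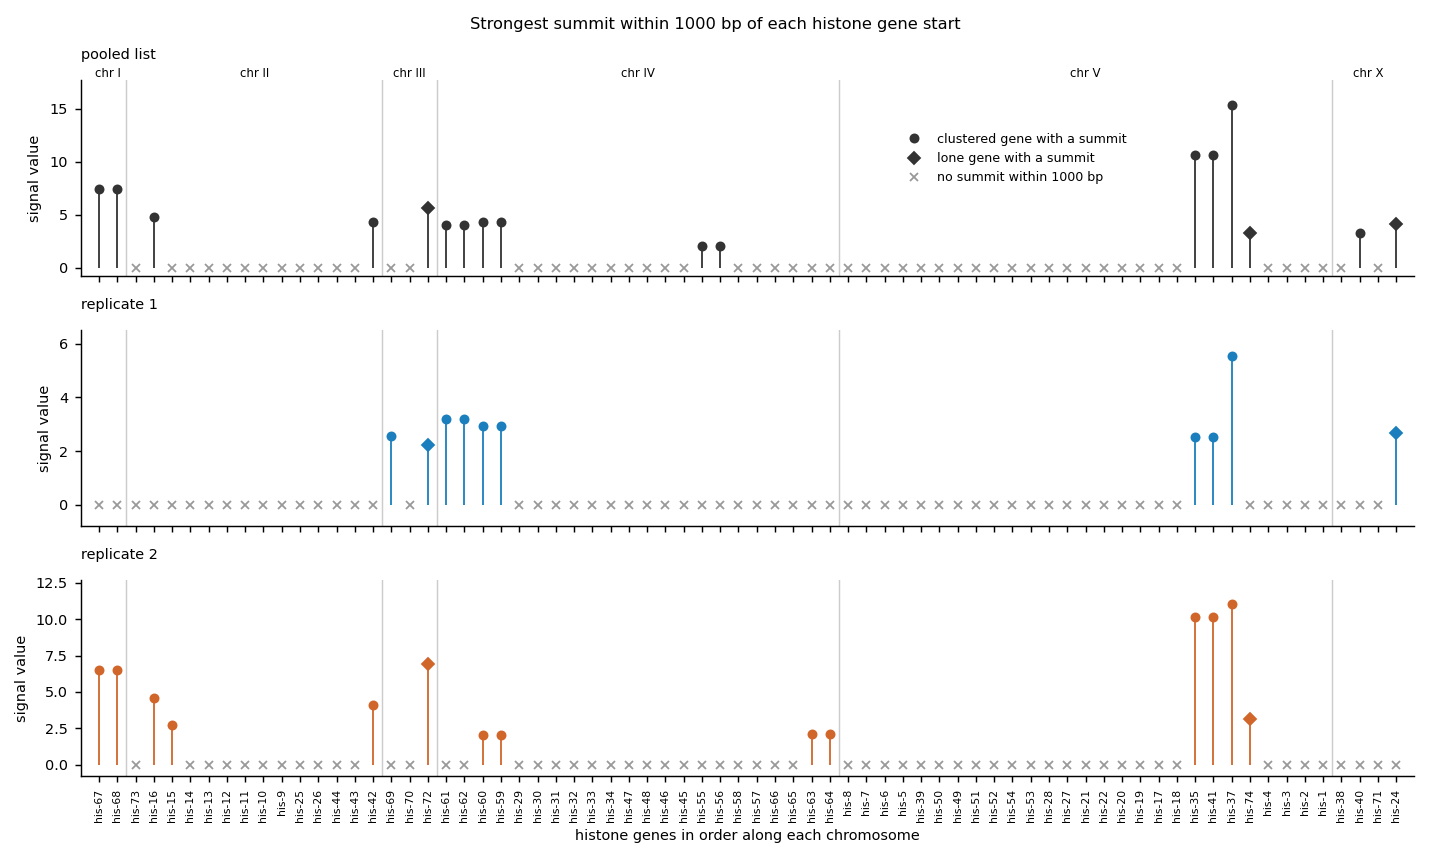
Signal value (y axis, the authors' score, without unit) of the strongest summit within 1000 bp of each of the 72 histone gene starts (x axis, in order along the chromosomes), in the pooled list, replicate 1 and replicate 2. Circles are clustered genes, diamonds lone genes and crosses genes with no summit. The highest column in each panel is his-37, at 15.4, 5.54 and 11.0, and most positions in the long clusters hold crosses.

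Sequences of 5 promoter regions are shown. They are the promoter under the strongest histone peak (his-37), the gaps of 2 pairs whose genes had summits of both replicates within 1000 bp (his-35/his-41, with no pooled summit in the gap itself, and his-60/his-59, with 1), the promoter of the linker histone gene his-24, and the gap of a pair in a repeated cluster with no listed peak (his-50/his-49). All are from the RefSeq assembly on ce11, plus strand, 5′ to 3′. The his-37 window covers 250 bases before to 50 after its start (chrV:9546855-9547154), and the his-24 window likewise (chrX:14489844-14490143). The others are whole gaps between back-to-back starts: his-35/his-41 (chrV:9545289-9545535, 247 bases), his-60/his-59 (chrIV:7487993-7488248) and his-50/his-49 (chrV:8847705-8847942, 238 bases). The gap of his-28/his-27 (chrV:8889800-8890037) is the same 238 bases with 0 differences and is not printed again. Capitals mark a TATA box sequence of 6 letters and a word of 14 letters, each on either strand.
his-37: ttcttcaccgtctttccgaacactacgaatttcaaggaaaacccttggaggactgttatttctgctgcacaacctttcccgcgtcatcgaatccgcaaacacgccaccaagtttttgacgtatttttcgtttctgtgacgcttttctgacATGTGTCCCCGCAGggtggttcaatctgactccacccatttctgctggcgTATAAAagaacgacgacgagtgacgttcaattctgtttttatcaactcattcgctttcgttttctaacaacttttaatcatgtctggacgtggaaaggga
his-35/his-41: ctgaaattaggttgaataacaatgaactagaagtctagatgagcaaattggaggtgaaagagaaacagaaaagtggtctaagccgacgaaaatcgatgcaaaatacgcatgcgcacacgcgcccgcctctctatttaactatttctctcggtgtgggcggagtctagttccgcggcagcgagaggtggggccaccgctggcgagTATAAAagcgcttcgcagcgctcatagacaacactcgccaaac
his-60/his-59: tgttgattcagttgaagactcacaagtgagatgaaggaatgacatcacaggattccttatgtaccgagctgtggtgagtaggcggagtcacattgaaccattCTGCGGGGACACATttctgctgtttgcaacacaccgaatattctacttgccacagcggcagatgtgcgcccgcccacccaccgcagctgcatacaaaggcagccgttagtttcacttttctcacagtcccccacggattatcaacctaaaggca
his-50/his-49: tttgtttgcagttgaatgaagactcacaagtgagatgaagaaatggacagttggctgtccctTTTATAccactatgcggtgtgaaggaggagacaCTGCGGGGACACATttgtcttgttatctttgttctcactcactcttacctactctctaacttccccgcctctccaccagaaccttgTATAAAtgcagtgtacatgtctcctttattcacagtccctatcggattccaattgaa
his-24: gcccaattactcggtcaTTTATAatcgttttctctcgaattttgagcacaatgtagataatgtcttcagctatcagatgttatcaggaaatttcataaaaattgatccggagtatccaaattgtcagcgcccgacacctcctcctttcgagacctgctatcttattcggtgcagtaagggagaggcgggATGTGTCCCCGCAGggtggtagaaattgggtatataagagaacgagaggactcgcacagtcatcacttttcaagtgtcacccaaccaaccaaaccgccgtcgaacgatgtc

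The word ATGTGTCCCCGCAG was found after the sequences had been seen, as the longest run shared by the his-37 window and the his-50/his-49 gap, and so received no test. Within windows from 250 bases before to 50 after the start it occurs in 22 of 72 histone genes (30.6%) and in 24 of 19985 protein-coding genes (0.12%), the other 2 being K07C5.13 and fbxb-107. It is present at 5 of 17 H2A, 4 of 16 H2B, 5 of 15 H3 and 7 of 16 H4 genes and at the H1 gene his-24, and at 0 of 5 genes for H3.3 or H3.3-like histones. Partners of a pair have overlapping windows and share a copy, so the 22 genes rest on 12 copies. The nuclear genome holds 30 copies in all. Of the 12 copies by histone genes, 4 lay within 250 bp of a pooled summit: their centres were 7 bp from the summit at his-60/his-59, 19 bp at his-37, 28 bp at his-67/his-68 and 95 bp at his-24. The word came from the his-37 window, shown for its peak, so that copy was bound to lie within 250 bp of the summit. Of the 18 copies elsewhere, 1 lay within 250 bp of a pooled summit. The other 8 lay in clusters, 867 bp or more from a pooled summit. The peaks are 370 bp wide, so these distances are finer than the width of a peak, and a match of letters is a description and not a site. The his-35/his-41 gap has no copy, although the trio it belongs to has the strongest histone peaks.

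Other letters were searched in the same windows on both strands, and none of these motifs contains another. TATAAA occurred at 47 of 72 histone genes (65.3%) against 38.0% of all protein-coding genes, and at 7 of the 17 with a pooled summit. GAGAG occurred at 49 (68.1%) against 39.9%, and CCAAT at 39 (54.2%) against 45.5%. TAATTA, a core sequence that many homeodomains recognise, occurred at 1 histone gene (1.39%) against 15.5% of all, and that gene had no pooled summit. ATTTGCAT, the octamer known from H2B promoters of vertebrates, occurred at 0 histone genes against 2.86% of all. Base composition and the repeats among histone promoters were not matched in these shares.

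The highest peaks at core histone genes lay in a trio on chromosome V, his-35 (H2A), his-41 (H2B) and his-37 (H4), which spans chrV:9544659-9547607. At his-37 the pooled summit lay 74 bp upstream of the start, within the sequence shown, with a signal value of 15.4. It ranked 63 of 15658, and the lowest thresholded peak had a signal value of 16.4 and rank 57. Replicate 2 had its own summit 77 bp upstream with a signal value of 11.0 and rank 77. In replicate 1 the strongest summit near his-37 lay 213 bp downstream of the start with a signal value of 5.54 and rank 145, and a second one lay 116 bp upstream with 2.94. Both replicates thus listed peaks on both sides of the his-37 start, and they differed in which was higher.

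The pooled summit with a signal value of 10.7 and rank 192 lay inside his-41, 438 bp downstream of the his-41 start and 686 bp upstream of the his-35 start. Its nearest annotated start was that of C50F4.6, 118 bp further on, so its assignment to either histone gene is one of distance alone. Replicate 2 listed it 9 bp away with a signal value of 10.2 and rank 100. Replicate 1 had no summit there: its nearest lay 345 bp away, 93 bp downstream of the his-41 start, with a signal value of 2.51 and rank 2721. That replicate 1 peak overlaps a second replicate 2 peak, with its summit 160 bp downstream of the his-41 start. The second replicate 2 peak had a signal value of 4.54 and rank 1164. Both replicates thus listed a peak just inside the his-41 start. A weaker pooled summit with a signal value of 6.24 lay 846 bp downstream of the his-35 start, closer to mdf-1, a spindle checkpoint gene. The trio is unlike most of the family in that each gene has an intron and 98.4% of the 32-base words in its span occur once in the genome. None of its genes has an identical coding copy, as holds for 36 of the 72 histone genes.

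**Figure D2:**
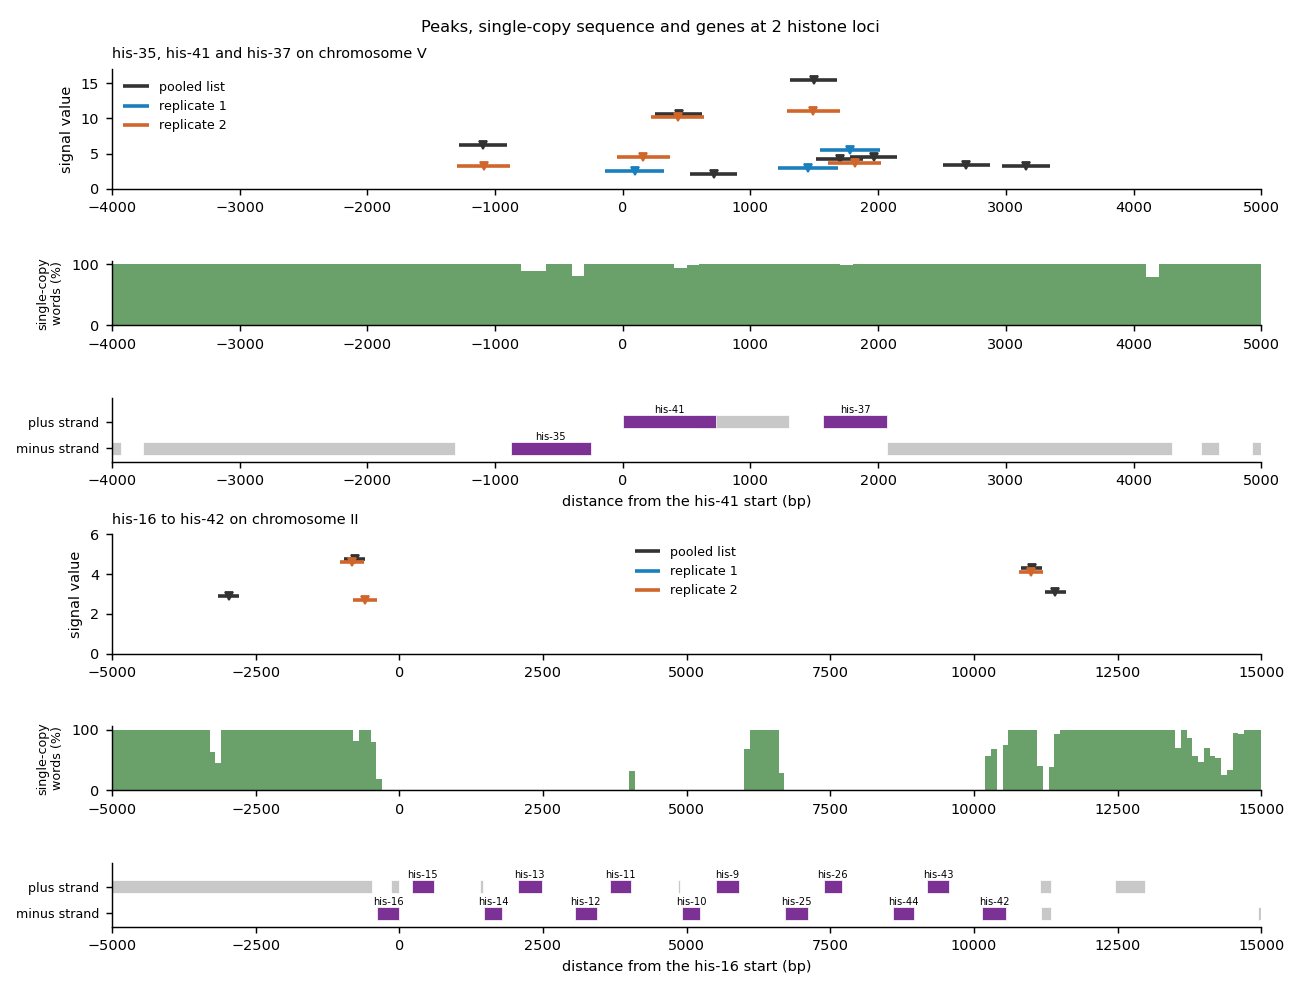
Listed peaks (bars, with a triangle at the summit, y axis the authors' signal value), the share of 32-base words that occur once in the genome in bins of 100 bp (green, in percent) and genes (purple for histone genes, grey for others) at the chromosome V trio and at the 13-gene cluster on chromosome II, along the distance in bp from the his-41 and his-16 starts. In the trio the pooled peaks at 15.4 and 10.7 stand over single-copy sequence, whereas the peaks at the chromosome II cluster lie past both of its ends.

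Among H3 and H4 genes outside the trio, his-59 (H3) and his-60 (H4) on chromosome IV had summits in both replicates. The pooled list had one in their shared promoter, 117 bp upstream of his-60 and 140 bp upstream of his-59, with a signal value of 4.21, and a second past the end of his-59, 472 bp from its start, with 4.29. Replicate 2 listed the promoter peak with a signal value of 2.06, close to the lowest of its list at 2.00. Replicate 1 listed the other one with 2.93. Each replicate therefore matched a different peak of this pair. The neighbouring pair, his-61 (H2A) and his-62 (H2B), had 1 pooled summit inside his-62 with a signal value of 4.04, listed at the same position in replicate 1 with 3.20 and not listed in replicate 2.

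The pair his-67 (H4) and his-68 (H2A) on chromosome I, the single pair that joins these classes, had a pooled summit in its gap, 263 bp upstream of his-67 and 106 bp upstream of his-68. The pooled signal value was 7.46, with rank 570, and that in replicate 2 was 6.5, with rank 384. Replicate 1 had no peak there. Of the 57 thresholded peaks, 1 lay within 10 kb of this pair. This gap and that of his-60/his-59 were the 2 of 31 shared promoters that held a pooled summit.

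Another 5 core genes had pooled summits outside these loci. At his-16 (H2A), the first gene of the chromosome II cluster, it lay 776 bp downstream of the start, past the end of the gene. Its nearest annotated start was that of a noncoding RNA gene, 626 bp away. The signal value was 4.76 in the pooled list and 4.60 in replicate 2. At his-42 (H3), the last gene of that cluster, it lay 454 bp upstream with a signal value of 4.30 and 4.11, nearer to a noncoding RNA gene. At his-40 (H3) it lay 949 bp downstream with 3.33, and at his-55 (H3) and his-56 (H4) the shared summit had 2.04, and neither replicate listed a peak at these last 3 genes. Over the 17 genes the strongest pooled summit lay between 797 bp upstream and 949 bp downstream of the start, 9 of them upstream and 9 within 500 bp. The 17 genes shared 19 distinct pooled summits, of which 7 overlapped a replicate 1 peak, 13 a replicate 2 peak, 4 a peak of both and 3 a peak of neither. All 4 with a peak of both lay in the chromosome V trio. Those at his-37 overlapped the same replicate 1 peak, with a signal value of 5.54. The one inside his-41 overlapped its replicate 1 peak by 75 bp, with the summits 345 bp apart. For 12 of the 19 the nearest annotated start was that of a histone gene.

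**Figure D3:**
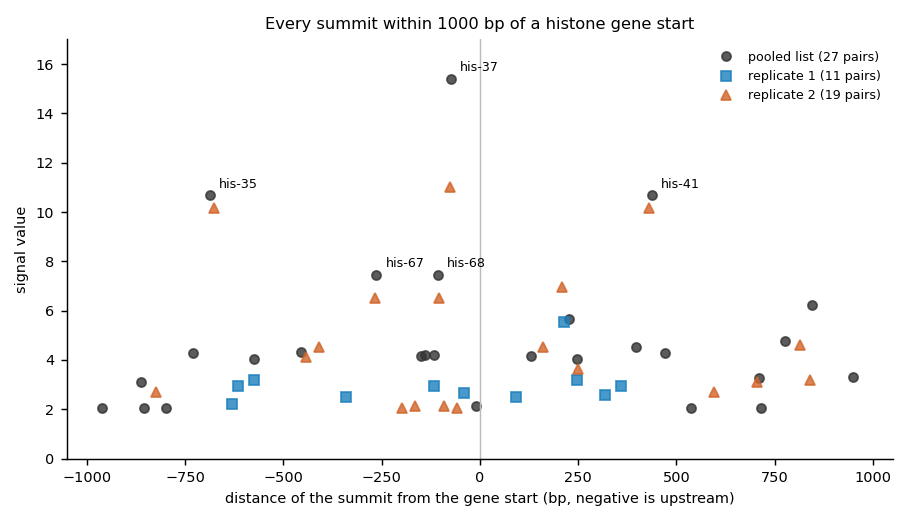
Signal value (y axis, the authors' score) against distance from the gene start in bp (x axis, upstream negative) for every summit within 1000 bp of a histone gene, by list, with 27 gene and summit pairs in the pooled list. A summit near 2 genes is drawn once for each. The points labelled his-35 and his-41 are 1 summit at 10.7, the points labelled his-67 and his-68 are 1 summit at 7.46, and the summit of his-37 at 15.4 lies 74 bp upstream.

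Among the genes for H3.3 and H3.3-like histones, his-72 had the highest signal value. At his-72, an H3.3 gene, the pooled summit lay 228 bp downstream of the start with a signal value of 5.68, and replicate 2 had one 210 bp downstream with 6.95 and rank 321. Replicate 1 had none there, and its one summit near the gene lay 631 bp upstream with 2.23. At his-74 the pooled summit, 710 bp downstream, had a signal value of 3.25 and replicate 2 had 3.12, closer to the start of the neighbour ccch-3. At his-71, the other H3.3 gene, no list had a summit within 1000 bp, and the nearest pooled summit lay 6331 bp away, although 99.95% of the 32-base words within 1000 bp of its start occur once in the genome. The H3.3-like genes his-69 and his-70 had no pooled summit, and his-69 had one in replicate 1 with 2.57. By class, a pooled summit lay near 4 of 17 H2A, 2 of 16 H2B, 4 of 15 H3, 4 of 16 H4 and 2 of 5 genes for H3.3 or H3.3-like histones, against 30.0% of all protein-coding genes. That share lies inside the exact interval of each of these classes, the narrowest being that of H2B at 1.55% to 38.3%.

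The linker histone gene his-24, on chromosome X, had a pooled summit 149 bp upstream of its start with a signal value of 4.16 and rank 3267. Replicate 1 had one 41 bp upstream with 2.67, and replicate 2 had none. Neither his-39 nor his-73, the genes with no class, had a summit in any list.

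Most clusters, long or short, held no pooled summit. Of the 15 clusters, which span 57 kb, 12 with 58 genes held no pooled summit between their first and last gene. Several of the 12 are short pairs, where an empty span is common, and the number of empty clusters to expect was not computed. The 8 summits inside clusters came to 1.4 per 10 kb, against 1.5 per 10 kb in the 10 kb on either side and 1.56 per 10 kb in the nuclear genome. Of these 8, 5 lay in the chromosome V trio. The other 14 clusters held 3, or 0.55 per 10 kb, against 1.36 per 10 kb in their flanks. Flanks were added up cluster by cluster, so the overlapping flanks of neighbouring chromosome IV clusters were counted more than once. Some of these flanks also hold histone genes of the next cluster. The trio was set apart after its peaks had been seen, so a lower value for the rest follows from that choice. The chromosome II cluster from his-16 to his-42, with 13 genes in 10938 bp, had 0 inside and 6 in its flanks. On chromosome V, the 8 genes from his-28 to his-18 were 37780 bp from the nearest pooled summit and the 6 genes from his-50 to his-53 were 34616 bp from it. On chromosome IV the 6 genes from his-29 to his-34 had 0 inside and the nearest summit 825 bp away. The X pair of his-38 and his-40 also had 0 inside, as did the pair of his-69 and his-70 on chromosome III.

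Much of the family is repeated sequence. The share of 32-base words that occur once in the genome, counted on both strands within 1000 bp of the start, had a median of 29.3% over histone genes and 100% over all protein-coding genes. It was under 50% at 41 of 72 histone genes (56.9%) and at 525 of 19985 protein-coding genes (2.63%). Over whole cluster spans, from the first gene to the last, the share ran from 79.3% to 98.4% in the 3 clusters with a pooled summit inside. Of the 12 clusters without one, 8 had a share under 50%, among them the span from his-28 to his-18 with 0.94%, that from his-50 to his-53 with 0.00% and the chromosome II cluster with 7.16%. The other 4 of the 12 were mostly single-copy: his-69 and his-70 with 97.9%, his-4 to his-1 with 66.96%, his-38 and his-40 with 65.5%, and his-8 to his-39 with 58.3%. The sources used here state neither the read length nor the treatment of reads that match several places. Whether repeated sequence bears on which clusters held a peak was not tested.

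Genes were then grouped by the share within 1000 bp of the start. Where it was under 50%, a pooled summit lay near 4 of 41 histone genes (9.76%, 2.72 to 23.1) and 21 of 525 protein-coding genes (4%). From 50% to under 90% it was 5 of 20 (25.0%, 8.66 to 49.1) and 535 of 2526 (21.2%). At 90% or more it was 8 of 11 (72.7%, 39.0 to 94.0) and 5440 of 16934 (32.1%). In that last class one of the 1000 strongest summits lay near 5 of 11 (45.5%, 16.7 to 76.6) and 3.57% of protein-coding genes, and summits of both replicates near 4 of 11 (36.4%, 10.9 to 69.2) and 4.19%. Those 11 genes include the trio, which shares summits, and the classes were drawn after the data had been seen.

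**Figure D4:**
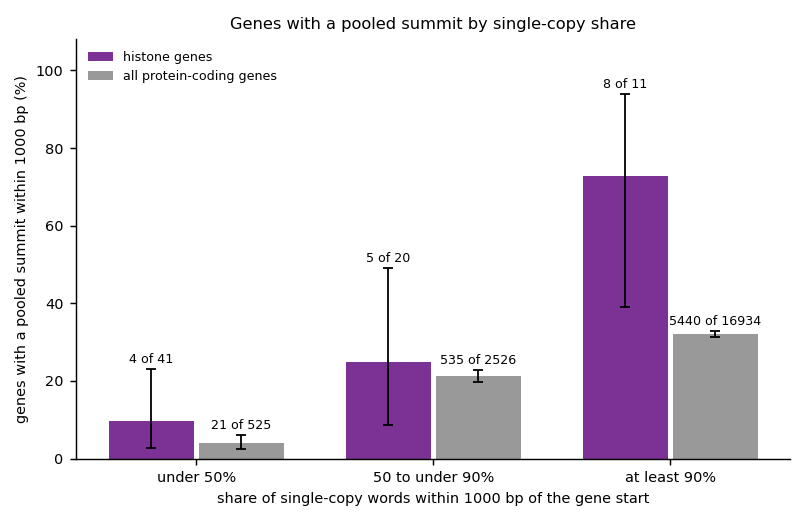
Percent of genes with a pooled summit within 1000 bp of the start (y axis) by the share of 32-base words within 1000 bp that occur once in the genome (x axis), for histone genes (purple, left) and all protein-coding genes (grey, right). Bars start at 0, error bars are exact 95% intervals for counting error and the counts stand above them. Histone genes run from 9.76% to 72.7% and all protein-coding genes from 4% to 32.1%.

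Gene structure went with the same split. Of 8 histone genes with an intron (his-24, his-35, his-37, his-41, his-57, his-71, his-72 and his-74), 6 had a pooled summit (75.0%, 34.9 to 96.8) and 4 had summits of both replicates. Of 64 with 1 exon, 11 had a pooled summit (17.2%, 8.9 to 28.7) and 2 had summits of both replicates. Over all protein-coding genes the shares were 30.0% with an intron and 30.7% with 1 exon. Of the 36 histone genes with an identical coding copy, 3 had a pooled summit (8.33%, 1.75 to 22.5), against 14 of the 36 without one (38.9%, 23.1 to 56.5). Introns, copy number and single-copy sequence move together in this family and cannot be told apart here. The genes with an intron include the trio, which shares summits, so they are not separate cases. For his-35, his-41 and his-74 the strongest pooled summit lay closer to the start of another gene. The grouping by introns was drawn after the data had been seen.

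A separate list of 25 genes, here called supply genes, held linker histone genes (hil-1 to hil-7), variant genes and genes that supply or carry histones. Of the 25, 24 were matched. A pooled summit lay near 13 of 24 (54.2%, 32.8 to 74.4), against 30.0% of all protein-coding genes. Summits of both replicates lay near 4 (16.7%, 4.74 to 37.4), against 3.8% of all, and one of the 1000 strongest near 3 (12.5%), against 3.27% of all. None had a thresholded summit. The highest was htz-1, the gene for H2A.Z, with a summit 341 bp upstream and a signal value of 12.3 in the pooled list (rank 123), 3.55 in replicate 1 and 11.99 in replicate 2. Next came lin-53, for a histone chaperone of the RbAp46/48 family, with 8.61 in the pooled list, 5.99 in replicate 1 and 2.72 in replicate 2. For nap-1, a nucleosome assembly protein, the values were 8.15, 3.06 and 4.51. Lower pooled values were those of the linker histone gene hil-5 with 5.82, the centromeric H3 gene hcp-3 with 5.19 and the Asf1-type chaperone gene unc-85 with 5.18. Of these, hil-5 had a summit in replicate 2 alone, with 2.87, and unc-85 in replicate 1 alone, with 3.10. Neither replicate listed a summit near hcp-3. No list had a summit near cdl-1, which encodes the stem-loop binding protein that processes replication-dependent histone mRNA. The same held for hil-4, hil-6, asfl-1, hira-1, spt-16, spt-5, hmg-3, hmg-4 and xnp-1. For hil-7 replicate 2 alone had a summit, with 2.94.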

How the data were processed

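ChIP-seq peak lists in narrowPeak form on ce11 were used as deposited: 1 for each of the 2 replicates, 1 from pooled reads, and the authors' thresholded list. The deposited signal value is a score that the authors' caller wrote; the sources used here name no caller, aligner, version or threshold. The ce10 lists were not used. Depth per sample is unknown.

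The Ensembl annotation of WBcel235 (release 115), which has ce11 coordinates, gave the genes. Names came from RefSeq entries with the same coordinates, found for 72 of 72 genes, since Ensembl gives them only 50 distinct names. Summits were assigned within 1000 bp of the annotated start, which in this animal can be a trans-splice site; for 65 of 72 genes it is the start of the coding sequence. Single-copy words, intervals (exact, 95%) and matches were computed with python 3.11.15, numpy 2.4.6, pandas 2.3.3 and scipy 1.17.1 and the word counts were tested on simulated data.

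Members and lists were chosen with earlier results of these data known. Named are genes with summits in both replicates, one of the 1000 strongest pooled summits or a place among the 20 histone genes of highest signal value, lone genes, the largest cluster on each chromosome and 6 supply genes. Other genes named were chosen after their values were seen.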

Additional observations from a re-analysis of the deposited data

How the results depend on the processing

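The count of histone genes with a pooled summit, 17 within 1000 bp, was 10 within 500 bp, 29 within 2000 bp and 10 with the 3000 strongest pooled peaks. With 1 replicate left out, so that the other's own list was read, it was 10 to 14. For clustered genes the count of 14 was 8 within 500 bp and 25 within 2000 bp, and 8 to 12 in a single replicate. The count of 5 genes near one of the 1000 strongest summits was 3 with the 300 strongest and 10 with the 3000 strongest. In a single replicate it was 1 to 6, and in each of these ranges the lower value came from replicate 1 alone. The count of 13 supply genes was 8 within 500 bp. Some alternatives were chosen after seeing the data: the count of 4 genes with under 50% single-copy words was 1 within 500 bp, 13 within 2000 bp, 2 when the downstream side alone was cut to 500 bp, and 0 to 3 in a single replicate. The background moved with the window, from 19% of protein-coding genes within 500 bp to 46.1% within 2000 bp. The other 30 alternative values lay within 1.5 times the count reported or were medians of signal value. Those medians ran from 4.16 to 4.99, beside 4.29, and moved by less than the SD of the 2 replicate medians (1.1). That SD comes from separate lists with different genes, so it does not measure how stable the pooled median is. No histone gene had a thresholded summit in any window tried.

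No paired analysis was possible because there is 1 group. Depth is unknown, so what a longer list would add to the repeated clusters cannot be given.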
